A study of Mus musculus with 4 samples.

Results

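Complement is a cascade of blood and tissue proteins that marks surfaces for removal and can puncture membranes. C4, the product of C4b, is cut after C1 or the mannose-binding lectins recognise a target, and its larger fragment pairs with C2 to form an enzyme that cuts C3. C3 is the hub on which all routes meet, and factor B, the product of Cfb, is its partner in the alternative route. Host cells are shielded by the C1 inhibitor (Serping1), by CD55, which takes apart the C3-cutting enzymes, by CD59, which blocks the final pore, and by clusterin (Clu), a secreted chaperone that also binds the late complexes. The liver makes most circulating complement, and fibroblasts are known to secrete some of its proteins as well.

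The genes described here are C4b and the complement components and regulators C3, Cfb, Serping1, Clu, Cd55 and Cd59a, 7 genes taken by their symbol in the platform annotation. Of the 7, 6 had a probe, out of 16593 genes with a probe of 1 symbol, and each of the 6 had 1 probe. C3 had none and was not measured here. They were read in the mouse fibroblast line NIH-3T3, which was derived from embryos and is immortal. The groups were fibroblasts given microvesicles, small membrane particles purified from the medium of cultured cardiomyocytes (2 arrays), and control fibroblasts without them (2 arrays). Both were grown in Claycomb medium, a culture medium for cardiomyocytes. The dose and the time of exposure are not given in the sources used here, nor whether replicates were separate cultures, so the spread between them may be technical. C4b was selected on its fall in normalized signal in this same comparison, and the other members were chosen with the results of that comparison known. The members' differences between groups are therefore given as a description, without a test.

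The arrays were dim. Median intensity, averaged for each probe over its beads, lay between 39.9 and 41.2 on the 4 arrays, close to the dimmer member probes. Of 25697 probes, 3762 (14.6%) were kept, those that both arrays of a group detected. Detection means a p under 0.05 against the negative control beads of the array. Of the 6 member probes, C4b, Clu and Cd59a were detected on all 4 arrays and were kept, and Cfb, Serping1 and Cd55 were detected on none. The upper range differed between arrays, with a 95th percentile of 75.1 and 59.6 with microvesicles, against 76.2 and 115 in controls. All 4 arrays lay on 1 chip, so that the place on the chip and the group cannot be told apart.

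C4b was lower with microvesicles on every array. The deposited intensity of its probe was 59.2 and 53.8 with microvesicles, against 138 and 239 in controls. The standard errors over the beads of an array were 3.62 and 3.38 with microvesicles, and 6.19 and 11.3 in controls. The 2 control arrays thus differed by more than their bead errors before normalization, and both stood far above both microvesicle arrays. The upper range was also brightest on control replicate 2 (95th percentile 115), while control replicate 1 (76.2) lay close to microvesicle replicate 1 (75.1). The part of the upper range in this raw gap was not tested. After background correction and quantile normalization, the log2 signal of C4b was 5.23 and 5.48 with microvesicles, against 7.03 and 6.94 in controls. The means were 5.36 ± 0.18 with microvesicles and 6.98 ± 0.06 in controls (SD, n = 2 each), a difference of -1.63, or 3.09-fold lower on this scale. The gap between groups was larger than that between replicates, which was 0.26 with microvesicles and 0.09 in controls. Since C4b was selected on its fall in this comparison, nothing is read from that. Among the 3762 kept probes, 9 had a difference as low as that of C4b or lower, itself included. In bulk samples, fewer cells that carry a transcript and less of it per cell cannot be told apart.

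**Figure D1:**
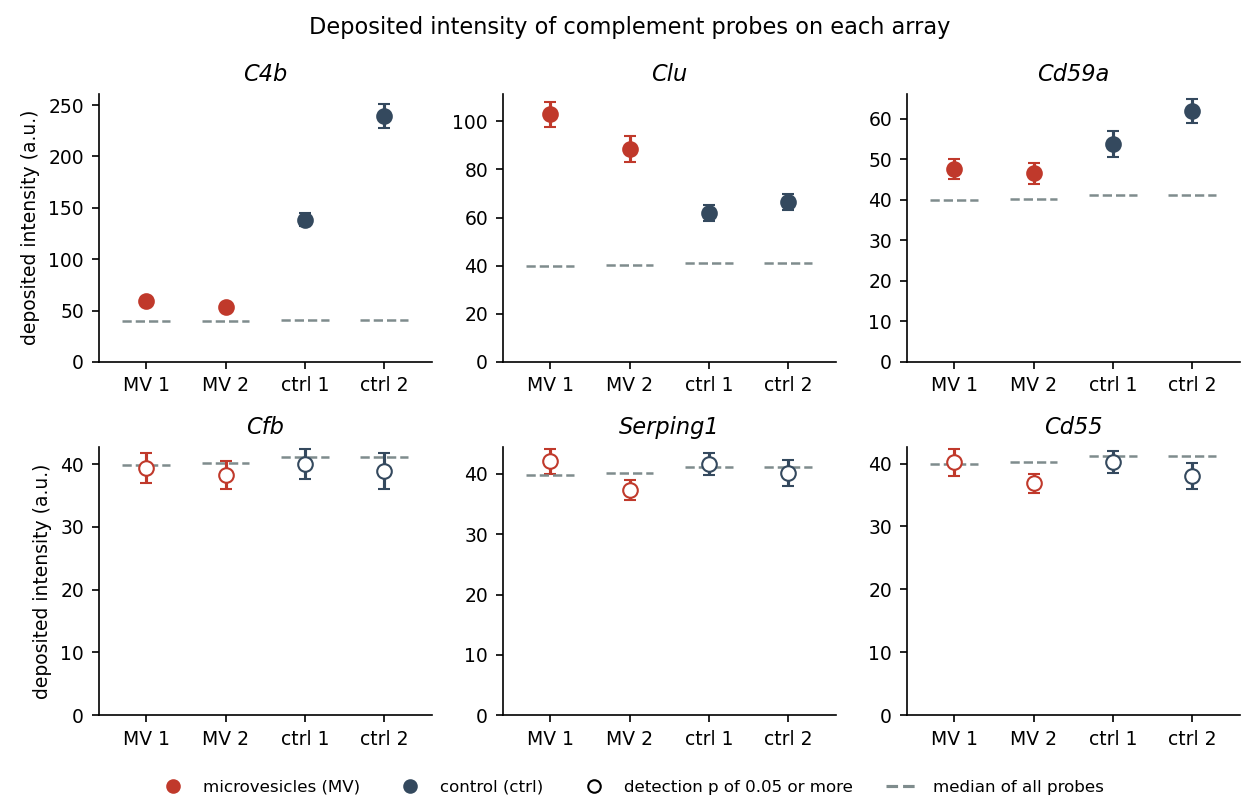
Deposited intensity (vertical axis, arbitrary units, a separate scale in each panel) of the 6 complement probes on the 2 microvesicle arrays (MV, red) and the 2 control arrays (ctrl, dark). Points are arrays, bars the standard error over beads, open points arrays with a detection p of 0.05 or more, and dashed lines the median of all probes on the array. C4b lies at 59.2 and 53.8 with microvesicles and at 138 and 239 in controls, Clu is higher with microvesicles, and Cfb, Serping1 and Cd55 stay at the array median.

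The size of the C4b difference depended on scaling, its sign did not. It was -0.97 without background correction and -2.23 with all-probe median scaling, where the median brightness of all probes is set equal in place of quantile normalization. There the median difference of all kept probes moved to -0.39, against -0.06 in the setting reported. Relative to that median, C4b stood at -1.84 there and at -1.56 in the reported setting. Leaving out 1 array at a time gave differences from -1.82 to -1.50.

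C4a, a near copy of C4b known in mice as sex-limited protein, lies close to it, 5 genes away in the RefSeq order. RefSeq lists C4a as a transcribed pseudogene and C4b as protein coding. The C4a probe gave a log2 signal of 4.36 and 4.60 with microvesicles, against 4.55 and 4.51 in controls, and 1 microvesicle array did not detect it. Its intensities were 43.1 and 45.8 with microvesicles and 47.9 and 49.5 in controls, close to background. A fall as large as that of C4b could therefore not have been seen in C4a. The groups overlapped, and the difference was -0.05 (SE 0.18, limma adjusted p = 0.875). It was 0.28 with kept-probe median scaling, which sets the medians of the kept probes equal, and 0.07 without microvesicle replicate 1. How far the probes of these 2 similar genes share targets was not tested.

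Factor B was not detected. The Cfb probe had intensities of 39.4 and 38.3 with microvesicles and of 40.03 and 38.97 in controls, with detection p-values from 0.439 to 0.663. At background in both groups, neither a fall nor a small change in Cfb could have been seen. C2, its neighbour and the partner of C4 in the classical route, was likewise detected on no array.

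Among the regulators, Clu moved against C4b and was higher with microvesicles. Its deposited intensity was 103 and 88.4 with microvesicles, against 61.8 and 66.4 in controls. Normalized log2 signals were 6.52 and 6.90 with microvesicles, against 5.34 and 4.95 in controls. Both microvesicle arrays stood above both control arrays, a lack of overlap found in 1 direction or the other in 57.5% of all kept probes. The means were 6.71 ± 0.27 with microvesicles and 5.15 ± 0.27 in controls (SD, n = 2 each), a difference of 1.57 or 2.96-fold, and 26 kept probes had a difference as high or higher, itself included. The replicates of Clu lay further apart than those of C4b, by 0.38 with microvesicles and 0.39 in controls. The difference was 0.88 without background correction, 0.999 with an offset of 50 in place of 16, and 0.90 with all-probe median scaling.

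Cd59a, which encodes the membrane-anchored inhibitor of the terminal pore, was slightly lower. Its log2 signal was 4.63 and 4.69 with microvesicles, against 4.95 and 4.84 in controls. The groups did not overlap, as in 57.5% of all kept probes. The difference of -0.24 was small beside the other 2 genes, against a median of -0.06 over all kept probes. The probe was close to background, with intensities of 47.6 and 46.5 with microvesicles and of 53.8 and 61.9 in controls. With kept-probe median scaling the difference was -0.03. Leaving out 1 array gave -0.31 to -0.20.

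The other regulators could not be followed. Serping1, for the C1 inhibitor, had intensities of 42.1 and 37.3 with microvesicles, against 41.7 and 40.1 in controls, with detection p-values from 0.153 to 0.748. Cd55 had 40.2 and 36.8 with microvesicles, against 40.2 and 38.0 in controls, with detection p-values from 0.357 to 0.805. Absence of signal on arrays this dim does not show that these transcripts were absent.

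Of the 3 members kept, C4b lay among the lower calls of the fit over all probes, Clu among the higher calls, and Cd59a among neither. Over all kept probes 284 were called (7.55%), 129 higher (3.43%) and 155 lower (4.12%). The groups did not overlap in any of the 3 members, as in 57.5% of all kept probes. Neither C4b nor Clu was called with all-probe median scaling (0 probes called in all), with no detection filter (29 called) or without any 1 array (0 to 10 called). Since this comparison chose the members, nothing is read from these counts.

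**Figure D2:**
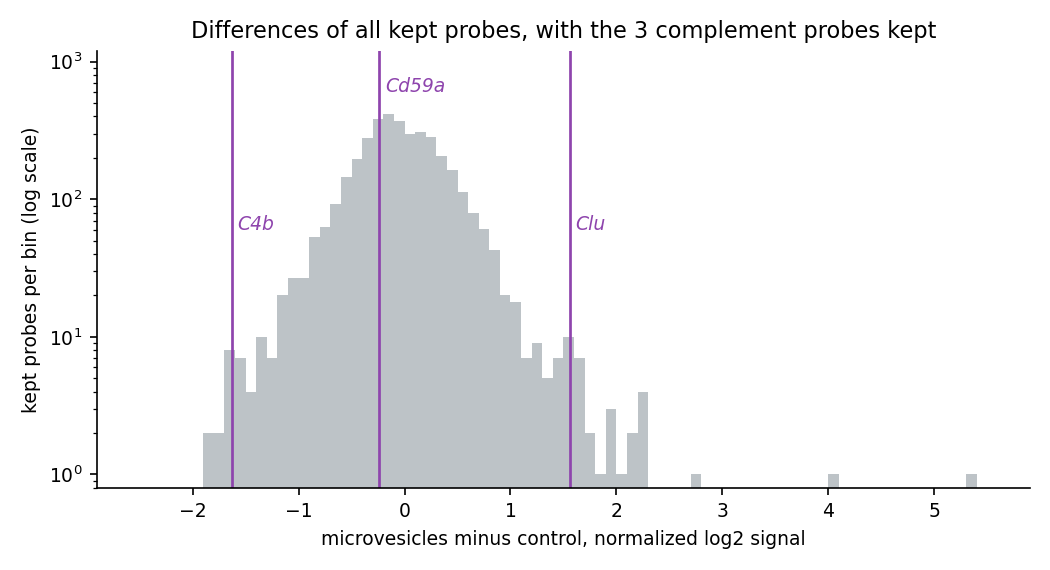
Number of the 3762 kept probes (vertical axis, log scale) by the difference in mean normalized log2 signal, microvesicles minus control (horizontal axis). Purple lines mark C4b at -1.63, Cd59a at -0.24 and Clu at 1.57, so that C4b and Clu lie in opposite tails and Cd59a within the bulk.

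The wider complement system was mostly below detection, as were most genes on these arrays. Of 56 further genes in lists of components, regulators and receptors, 47 had a probe. No array detected 33 of the 47 (70.2%), and 5 (10.6%) were kept. Among all genes with a probe, 62.1% were detected on no array and 18.6% were kept. Of the 5 kept, 1 rose and 0 fell, beside 3.43% of all kept probes called higher. The median difference of the 5 was -0.01, against -0.06 over all kept probes. The single rise was in Calr, which encodes calreticulin, a chaperone of the endoplasmic reticulum that also binds C1q at the cell surface and was listed here as a receptor. Its log2 signal was 6.16 and 6.04 with microvesicles, against 4.50 and 4.53 in controls, a difference of 1.59 (SE 0.17, limma adjusted p = 0.0049). The control intensities of Calr, 47.2 and 49.9, were close to background, and the size depended on its correction. It was 0.75 without background correction and 0.85 with an offset of 50, and passed in both (limma adjusted p = 0.0093 and 0.0184). Both microvesicle arrays were higher. It did not pass with all-probe median scaling (1.09, limma adjusted p = 0.444) or without any 1 of the 4 arrays (limma adjusted p = 0.0542 to 0.269), where the groups shrink to 2 against 1. Over all 14 alternatives its adjusted p ran from 5.9e-06 to 0.444.

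Of the classical and lectin route, 2 of 16 genes with a probe were kept, C4a and the protease gene C1s2, and neither passed (limma, 0 at an unadjusted p under 0.05). C1s2, whose product belongs to the C1s proteases that cut C4, had a difference of -0.0049, with 4.47 and 4.67 with microvesicles, against 4.80 and 4.35 in controls. Its arrays overlapped fully. C1qa was detected on 1 microvesicle array alone, and C1qb, C1qc and C1ra on none. Of the alternative and terminal route, 1 of 6 was kept, C8g, for a subunit of the pore (-0.34, limma adjusted p = 0.361), and Hc, C6 and C9 were detected on no array. Of the further regulators, 1 of 15 was kept, the factor H-related gene Cfhr2 (-0.0078, limma adjusted p = 0.983). Cd46 was detected on 1 microvesicle array, and Cfi, Cr1l, Vtn, Cd55b and Cd59b on none. The receptor genes C3ar1, C5ar1 and Itgam were not detected on any array.

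**Figure D3:**
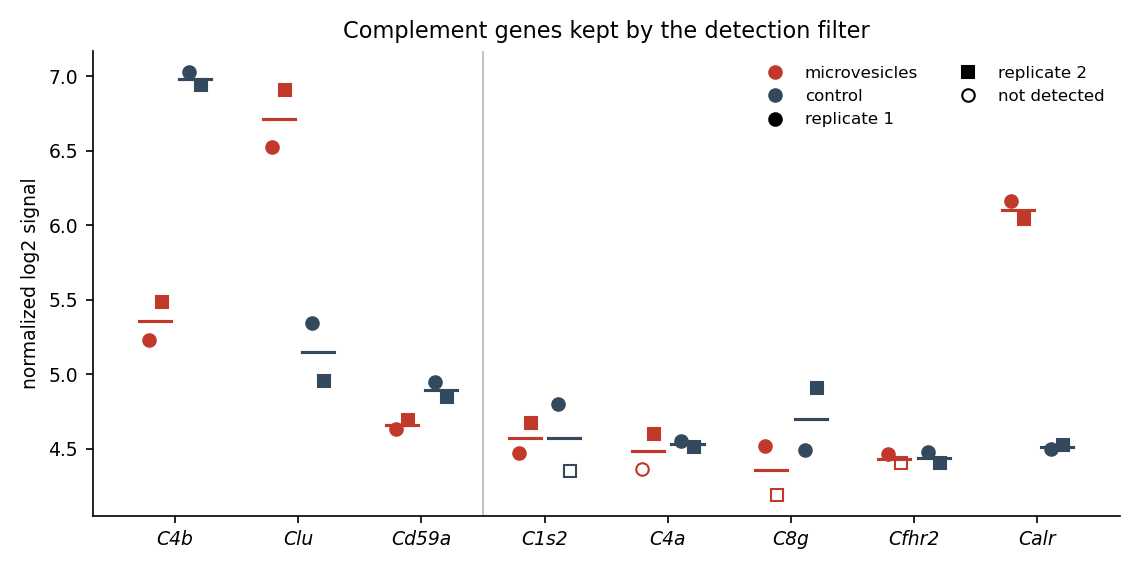
Normalized log2 signal (vertical axis) of the complement genes kept by the detection filter, the 3 members left of the grey line and 5 further genes right of it. Circles are replicate 1 and squares replicate 2 of the microvesicle (red) and control (dark) arrays, open symbols arrays that did not detect the probe, and lines group means. C4b is lower and Clu and Calr are higher with microvesicles, while C1s2, C4a and Cfhr2 differ by less than 0.06 and C8g by -0.34.

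Interferon and acute phase signals are known inducers of C4, C3 and factor B, and genes of these signals were read beside them. Of 29 with a probe 9 were kept, and of these 0 rose, 1 fell and 8 did not pass, with a median difference of -0.14. Over all kept probes 4.12% were called lower. An unadjusted limma p under 0.05 was found for 3 of the 9, beside 932 of all 3762 kept probes. The fall was in Stat3, which encodes a transcription factor that acts downstream of interleukin-6. Its log2 signal was 7.57 and 7.66 with microvesicles, against 8.81 and 8.77 in controls (-1.17, SE 0.17, limma adjusted p = 0.0093). Its other kept probe did not follow (-0.22, limma adjusted p = 0.565). With all-probe median scaling, where 0 probes were called in all, the called probe was at -2.05 (limma adjusted p = 0.444). With 1 array left out its difference was -1.21 to -1.13. Its limma adjusted p ran from 7.1e-06 to 0.444 over 14 alternatives. The other 2 with an unadjusted p under 0.05 lay higher with microvesicles, the transcription factor gene Cebpb (0.77, limma adjusted p = 0.11, and -0.17 with all-probe median scaling) and the tumour necrosis factor receptor gene Tnfrsf1a (0.60, limma adjusted p = 0.0824). Irf1, the interferon-induced transcription factor gene, had a difference of -0.01 on its brightest probe, and Il6, Ifng, Saa3 and Lcn2 were detected on no array. In the list of MHC class I and antigen processing, which interferon also induces, 4 of 13 genes with a probe were kept and 0 passed (limma, 3 at an unadjusted p under 0.05). The largest differences were in the proteasome activator genes Psme2 (0.73, limma adjusted p = 0.072) and Psme1 (0.63, limma adjusted p = 0.14), which were 0.03 and 0.00071 with all-probe median scaling. Psme2 passed in 2 of 14 alternatives (limma adjusted p = 0.0344 with trend and robust estimation) and Psme1 in 0.

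C4b, C4a, Cfb and C2 lie together in the class III region of the major histocompatibility complex. Of 24 listed genes of that region with a probe, C4a among them, 16 were kept. Of these 0 rose, 1 fell and 15 did not pass, beside 4.12% of all kept probes called lower. The median difference was -0.17, against -0.06 over all kept probes. An unadjusted limma p under 0.05 was found for 5, all lower with microvesicles, beside 932 of all 3762 kept probes. The called fall was in Vars, for a valyl-tRNA synthetase. Its log2 signal was 6.07 and 6.62 with microvesicles, against 7.39 and 7.51 in controls (-1.10, SE 0.22, limma adjusted p = 0.0288). Its other kept probe was at -0.10 (limma adjusted p = 0.772). The called probe did not pass without a detection filter (limma adjusted p = 0.266), where 29 probes were called in all. With all-probe median scaling 0 were called in all, and its limma adjusted p was 0.444. That p ranged from 6.0e-05 to 0.444 over 14 alternatives. With 1 array left out the difference was -1.41 to -0.85. Of listed genes close to C4b, the tenascin gene Tnxb had differences of -0.04 and 0.46 on its 2 kept probes. Cyp21a1 was not detected, and the 3 kept probes of Stk19 were at 0.0021, -0.53 and -0.31. Elsewhere in the list, Dxo was at -0.65 and -0.55 on its 2 kept probes (limma adjusted p = 0.0859 and 0.138). Agpat1 was at -0.44 (limma adjusted p = 0.198). Atf6b and Egfl8 were not detected with microvesicles, and neither passed (limma adjusted p = 0.104 and 0.196). Their observed means lay at least 1.36-fold and 1.22-fold lower there, bounds that carry no sampling error.

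Genes that share a protein class with the regulators did not pass in the reported setting, some of them by a narrow margin. Serping1 encodes a serpin, and of 21 serpin and contact system genes with a probe 2 were kept, Serpinf1 (0.94, limma adjusted p = 0.0898) and Serpinb6a (-0.30, limma adjusted p = 0.4). CD55 and CD59 are held by a glycosylphosphatidylinositol anchor, and of 30 genes of such proteins or of anchor synthesis 8 were kept, from the glypican gene Gpc1 (-0.87, limma adjusted p = 0.0505) to the anchor transfer gene Pigt (0.80, limma adjusted p = 0.0678). Clusterin is also apolipoprotein J, and of 14 apolipoprotein and lipoprotein receptor genes 2 were kept, Lrp10 (-0.31, limma adjusted p = 0.419) and Vldlr (limma adjusted p = 0.304). Vldlr was not detected in controls, and its observed mean lay at least 1.09-fold higher with microvesicles, a bound without sampling error. The limma fit called 0 genes in these 3 lists, beside 7.55% of all kept probes. An unadjusted limma p under 0.05 was found for 1 of the 2 serpin and contact system genes and 5 of the 8 anchor genes. Over all 3762 kept probes 932 had such a p. Gpc1 passed in 6 of 14 alternatives (limma adjusted p = 0.0109 to 0.444 over all 14), Serpinf1 and Pigt in 3 each and Vldlr in 1 of 13.

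The genes most like C4b over the 4 arrays were sought among 3534 kept probes, by the distance between log2 profiles after each probe's own mean was subtracted. The nearest were Txnip (distance 0.17), which encodes an inhibitor of thioredoxin, the G protein subunit gene Gng8 (0.20), Igfbp4 (0.24), whose product binds insulin-like growth factors, the Rac activator gene Tiam2 (0.26) and the semaphorin gene Sema4b (0.31), against a median distance of 1.62. Their differences lay between -1.81 and -1.44, which follows from how they were found. Tiam2 was not detected with microvesicles and was at least 2.48-fold lower there. The other kept probe of Igfbp4 was at 0.02.

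Cell type markers were read with the same probes. Of 14 fibroblast markers with a probe, 12 were detected on at least 1 array and 8 kept, while Col1a1 and Pdgfra were detected on none. The limma fit left 7 of the 8 not passed, and 4 had an unadjusted p under 0.05, of which 2 lay lower and 2 higher. Over all 3762 kept probes 932 had such a p, and 4.12% were called lower. Col6a1 fell (-1.05, limma adjusted p = 0.017), with -0.49 on its other kept probe. The called probe did not pass with all-probe median scaling (0 probes called in all) or with no detection filter (29 called). With 1 array left out it was at -1.16 to -0.93. Col1a2 was at -0.75 (limma adjusted p = 0.0528). Sparc, for a matrix glycoprotein, was at 0.77 on its brightest probe (limma adjusted p = 0.132) and called higher on its other (0.82, limma adjusted p = 0.0469), with 0.06 and 0.07 under all-probe median scaling. That call held in 7 of 14 alternatives, and the difference was 0.62 to 0.98 with 1 array left out. The intermediate filament gene Vim was at 0.53 (limma adjusted p = 0.176), and at -0.32 with that scaling. Hepatocytes and macrophages are the usual sources of complement. Of 11 hepatocyte markers 3 were detected on at least 1 array and 0 were kept, with Alb and Ttr detected on no array. Their summed intensities were 439 and 443 with microvesicles and 445 and 448 in controls. As many probes at the array median would give 439 and 443 with microvesicles, and 452 and 453 in controls. Of 12 macrophage and leukocyte markers 4 were detected on at least 1 array. The 2 kept were Lyz1 (0.31) and Coro1a (-0.25, and 0.01 with kept-probe median scaling), neither of which passed. Ptprc and Adgre1 were detected on no array, and summed intensities were 500.4 and 485 with microvesicles and 515 and 504 in controls. As many probes at the array median would give 479 and 483 with microvesicles, and 494 and 494 in controls. Of 9 endothelial markers 4 were detected on at least 1 array and 0 were kept. Of 22 cardiomyocyte markers 7 were detected on at least 1 array, 4 were kept and 0 passed. The largest differences of the 4 were in Des (-0.35, limma adjusted p = 0.286) and Atp2a2 (0.32, limma adjusted p = 0.413). Des was at 0.01 with kept-probe median scaling and Atp2a2 at -0.09 with all-probe median scaling. Actc1 and Nppa were among the 15 detected on no array.

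**Figure D4:**
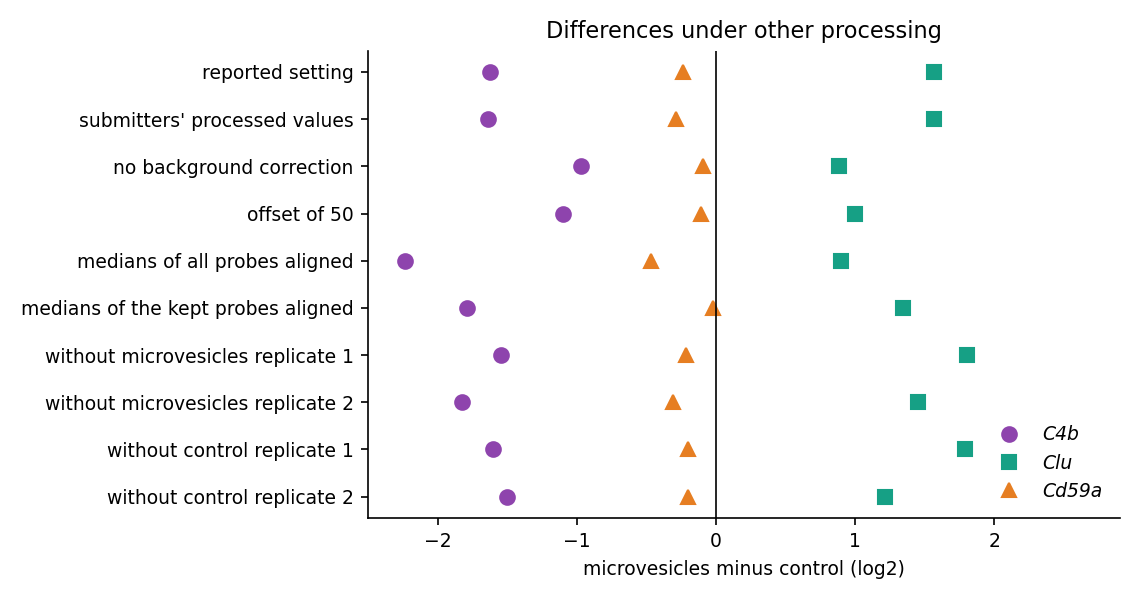
Difference between microvesicle and control arrays (horizontal axis, log2 scale) of C4b, Clu and Cd59a under the reported setting, 5 other ways of processing and each array left out (rows). C4b stays between -2.23 and -0.97, Clu between 0.88 and 1.80, and Cd59a between -0.47 and -0.03, so that no sign changed over these settings.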

How the data were processed

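Amplified RNA was measured with a Cy3 label on Illumina bead arrays. BeadStudio 3.3 is named in the submitters' processing notes. The first deposited table gives intensity values before background subtraction or normalization, with bead numbers (counts of beads, deposited), standard errors and a deposited detection p-value per probe. A deposited table of processed intensity was used as an alternative, its normalization method not given in the sources used here.

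Symbols came from the platform annotation, with 1 symbol for 23978 probes and none for 1719. RefSeq (GRCm38.p6) gave names, gene types and gene order. In R 4.3.3, limma 3.58.1 (neqc, offset 16) corrected the background from the detection p-values, quantile normalized and took log2. The offset compresses the changes of dim probes. Kept probes were fitted with lmFit and eBayes, with a single term for group. P-values were two-sided, adjusted by Benjamini and Hochberg over all 3762, and called under 0.05. The test was tried on simulated data with independent noise and no array or scaling effects. That trial therefore says nothing of how such effects bear on the calls. An exact permutation test of 2 against 2 cannot go below 0.333 and was not used. In lists each gene was read by its kept probe of highest mean signal. From each list the genes that passed were named, or the 2 largest differences where none did, and the 5 genes nearest to C4b. Further genes were picked with their values in view. The members and lists were chosen with earlier results of these data known. Where a group detected a probe on neither array, its fold is a bound, the other group's mean against the higher of its own signal and the lowest detected signal. Such a bound describes the observed means and carries no sampling error.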

Additional observations from a re-analysis of the deposited data

How the results depend on the processing

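Against 284 changed probes, the limma count was 0 with all-probe median scaling (398 at an unadjusted p under 0.05), 29 with no detection filter, 593 with trend and robust estimation and 0 to 10 with 1 array left out. Kept-probe median scaling was added after the data had been seen, and with it 76 were higher and 277 lower, against 129 and 155. The C4b difference of -1.63 was -0.97 without background correction, -1.10 with an offset of 50, -2.23 and -1.79 with all-probe and kept-probe median scaling, and -1.82 to -1.50 with 1 array left out. The cause of these shifts was not tested. The 1 call among other complement genes, Calr, became 0 with all-probe median scaling and, over the fits without 1 array, 0 to 0, with 1 at an unadjusted p under 0.05 in each. These fits set 2 arrays against 1, which is assumed to vary like the other group, so calls lost there say nothing of stability. C4a changed sign with kept-probe median scaling (0.28) and over the fits without 1 array (-0.193 to 0.0703), C1s2 with no background correction (0.0029), with kept-probe medians (0.38) and without 1 array (-0.157 to 0.232), and Cfhr2 with kept-probe medians (0.39) and without 1 array (-0.0388 to 0.0279). Coro1a (0.0125) and Des (0.0069) changed sign with kept-probe medians and Atp2a2 (-0.0854), Vim (-0.323) and Cebpb (-0.166) with all-probe medians. None of these passed in the reported setting. No member kept by the filter changed sign where the signals were processed otherwise or an array was left out. The settings with another filter, with trend and robust estimation or with a block use the same signals, so that no difference could change there.

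With the replicate number as a block, 313 probes were called. The labels give no shared origin for equal numbers. Deviations of same-numbered arrays correlated with r = -0.13 over kept probes, which are not independent replicates, and the crossed block, chosen after seeing the data, gave 396 calls. With the block, Gpc1 (limma adjusted p = 0.0344) and Serpinf1 (0.0301) passed. Low brightness is a limit, since 3 of 6 member probes were detected nowhere, beside 69.2% of all probes.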
